A study of Mus musculus with 12 samples.

Results

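Integrins are cell-surface adhesion receptors, each a pair of 1 alpha and 1 beta chain, and the 10 integrin subunit genes described here were Itgb3, Itgav, Itgb5, Itgb1, Itgb2, Itga1, Itga2, Itga4, Itgam and Itgax. They were taken by gene name from a table of 23863 genes, in which all 10 were found, and followed in 12 RNA-seq libraries of cultured mouse osteoclast precursors. The cells were sorted by flow cytometry from bone marrow as negative for CD45R and CD3, negative or low for CD11b, and positive for CD115, the M-CSF receptor. All mice, controls included, carried 1 floxed Runx1 allele and 1 wild-type allele (RUNX1 fl/+), and the labels name no Cre and give no age. Cells from females and from males were grown in M-CSF without RANKL or with RANKL added at 30 ng/ml, which gave 4 groups of 3 libraries. The titles give a culture of 3 days, whereas the growth protocol gives a longer one. Whether replicates were separate mice or cultures is not stated in the labels, and the p-values therefore measure the spread between libraries only.

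M-CSF keeps cells of the macrophage lineage alive, and RANKL turns them into osteoclasts, the multinucleated cells that resorb bone. The αvβ3 integrin, the vitronectin receptor, is the chief integrin of the mature osteoclast: it binds proteins with an RGD motif such as osteopontin, and signals through Src and Syk to the actin ring that seals the cell onto bone. Precursors and macrophages use αvβ5, which shares the αv chain, and mature osteoclasts are also known to carry α2β1, a collagen receptor. The β2 integrins, αMβ2 (CD11b/CD18) and αXβ2 (CD11c/CD18), are leukocyte receptors, and α4β1 binds VCAM1 and fibronectin.

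Total counts per library ran from 10646697 to 14113420 with M-CSF alone and from 14303174 to 15983769 with RANKL, so depth went with treatment. The first principal component held 84.7% of the variance and separated the treatments. Counts of Xist and of the Y-linked gene Eif2s3y met the labelled sex in all 12 libraries. The 8 osteoclast marker genes, Acp5, Ctsk, Calcr, Mmp9, Dcstamp, Ocstamp, Oscar and Atp6v0d2, summed to between 12.4 and 20.0 CPM (counts per 1000000 counts of the library) in the 6 libraries with M-CSF alone, with Calcr at 0 in all of them, and to between 28078 and 37840 CPM in the 6 with RANKL. The 8 macrophage and monocyte markers summed to between 4551 and 5330 CPM with M-CSF alone and to between 2850 and 3233 CPM with RANKL. In bulk RNA, fewer cells of a type and less RNA per cell cannot be told apart. Smaller shifts also went with treatment. The 5 endothelial markers summed to between 9.18 and 18.1 CPM with M-CSF alone, where Emcn was at 0, and to between 2.56 and 4.16 CPM with RANKL. The 3 of 6 mast cell and basophil markers found in the table summed to between 1.21 and 3.10 CPM and to between 6.53 and 8.72 CPM. The mitochondrial share of counts was 1.43% to 2.35% with M-CSF alone and 2.96% to 3.86% with RANKL. The part of these shifts in the results that follow was not tested.

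RANKL raised 4 of the 10 genes and lowered 3 in each sex. The genes were the same in females and males, against 24.4% of all tested genes called up in both sexes and 22.7% called down in both. Itga2, Itgb3, Itgav and Itgax rose, Itgb5, Itgam and Itgb1 fell, and Itgb2, Itga4 and Itga1 did not pass the test. The test was edgeR's quasi-likelihood test on the counts, with p-values adjusted over the 13236 genes that passed the filter on low counts and a threshold of 0.05. All 10 members passed that filter, Itga2 only through its libraries with RANKL. The same test called 51.9% of all tested genes in females, 26.8% up and 25.1% down, and 55% in males, 28.4% up and 26.6% down. The 7 called members of 10 are to be read against that broad background. In females the members had a median log2 fold change of 0.26, and in males -0.03, beside 0.03 and 0.01 over all tested genes. For each of the 7 called members, the 3 RANKL libraries of a sex did not overlap the 3 M-CSF libraries. That held for 58.3% of all tested genes in females and 61.2% in males. The authors' deposited table of comparisons also listed 4 members up and 3 down in each sex.

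**Figure D1:**
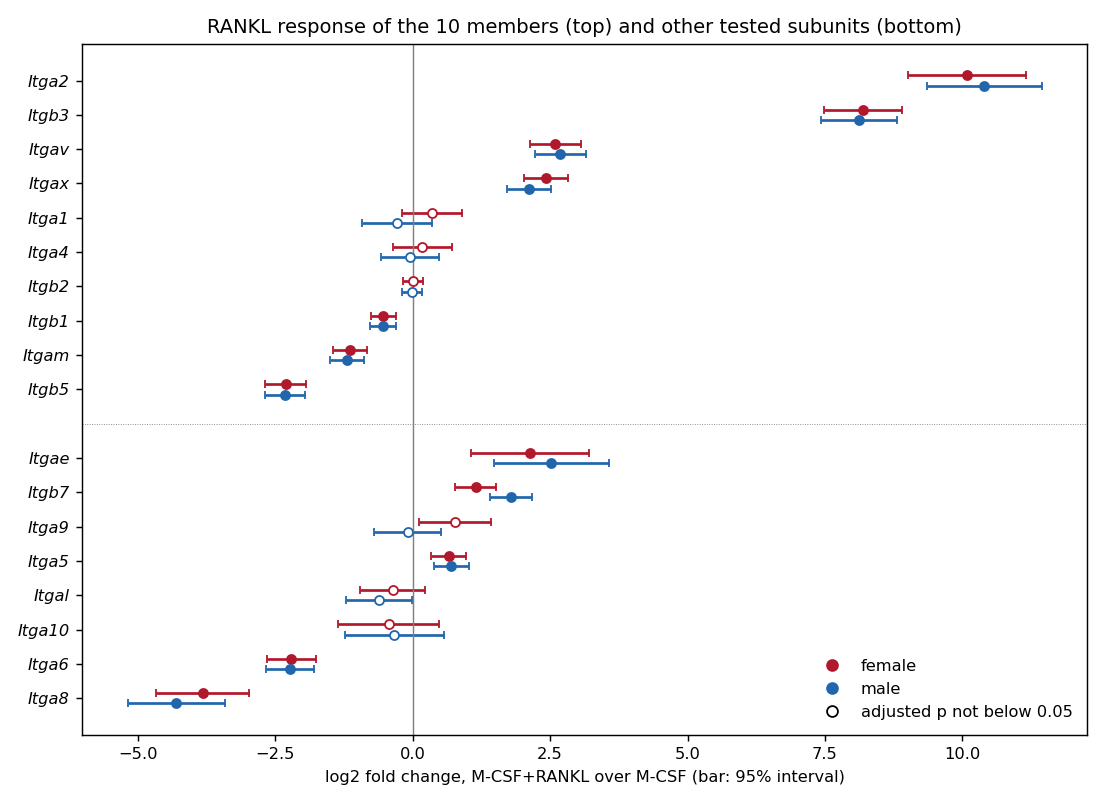
Log2 fold change of M-CSF+RANKL over M-CSF in females and males, with its 95% interval, for the 10 members (top) and the 8 other integrin subunit genes that were tested (bottom); open points did not pass the test. Itga2 and Itgb3 lie at 8 or more on the log2 scale in both sexes, Itgb5 lies near -2.3, and the female and male intervals overlap for all 10 members.

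The β3 gene changed from near silence to one of the most abundant integrin transcripts. Itgb3 lies on the plus strand of chromosome 11 (GRCm38/mm10, chr11:104608000-104670476). With M-CSF alone it had 25, 13 and 21 counts in the female libraries and 19, 29 and 21 in the male libraries. With RANKL it had 7557, 7175 and 7668 counts in females and 6657, 4936 and 10720 in males. Every RANKL library stood more than 100 times above every M-CSF library. In CPM the means were 1.75 ± 0.689 and 503 ± 27.0 in females (SD, n = 3) and 1.76 ± 0.301 and 491 ± 180 in males. The log2 fold change was 8.19 ± 0.33 in females (SE; adjusted p 4.5e-10, edgeR) and 8.12 ± 0.32 in males (adjusted p 3.655e-10). Of the 13236 tested genes, 103 rose by more in females and 99 in males. The male RANKL libraries spread more than the female ones, at 473, 321 and 679 CPM.

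Megakaryocytes and platelets also carry β3, paired with αIIb, the product of Itga2b. Itga2b had 9 counts over the female M-CSF libraries, 16 over the male ones, 21 with RANKL in females and 19 in males, and it did not pass the filter on low counts. The 5 of 7 megakaryocyte and platelet markers in the table summed to at most 8.87 CPM in any library, with no more than 5.32 CPM in a library with RANKL.

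The αv gene, which encodes the partner shared by β3 and β5, was already expressed with M-CSF alone and rose about 6-fold. Itgav (chr2:83724397-83806916, plus strand) had 96.5, 102 and 97.0 CPM in the female M-CSF libraries and 104, 87.6 and 123 CPM in the male ones. With RANKL it had 690, 459 and 639 CPM in females and 552, 550 and 923 CPM in males. The groups did not overlap, and male replicate 3, which was the highest for Itgb3, was also the highest for Itgav. The log2 fold change was 2.59 ± 0.21 in females (adjusted p 2.929e-07) and 2.68 ± 0.22 in males (adjusted p 1.794e-07). An opposite-strand gene, Gm13684, overlaps 634 exonic bases of Itgav and had between 0 and 36 counts per library, beside at least 1029 for Itgav.

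**Figure D2:**
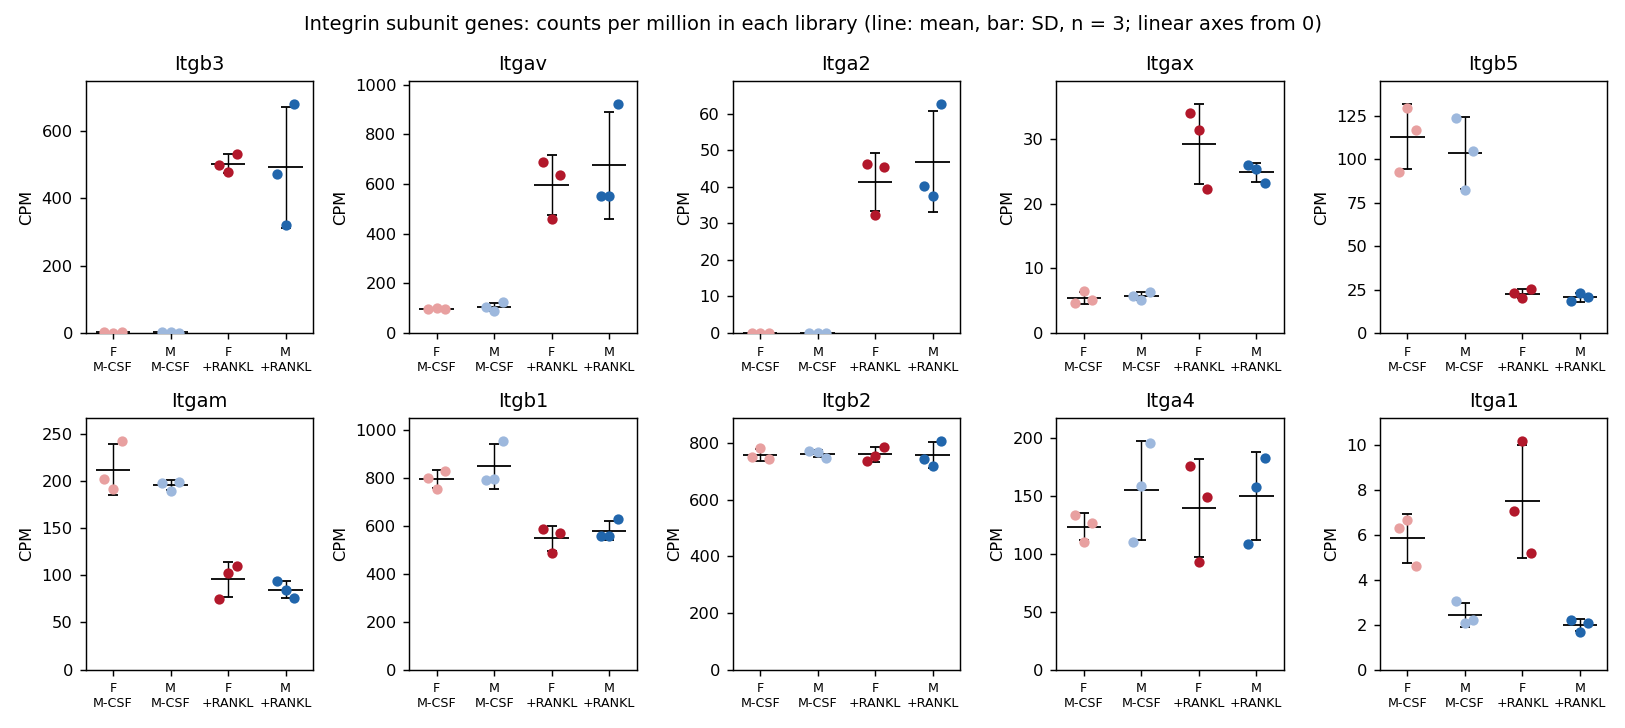
CPM of each member gene in the 12 libraries, on linear axes that start at 0; points are libraries, lines are group means and bars are SD (n = 3). F and M mark female and male cells, and +RANKL marks M-CSF+RANKL. The RANKL libraries lie above the M-CSF libraries in the first 4 panels and below them for Itgb5, Itgam and Itgb1; Itgb2 is level, and Itga1 separates the sexes.

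Promoter windows of members that moved are shown so that those which rose with RANKL can be read beside one that fell. The sequences are RefSeq's for GRCm38.p6, 250 bases before to 50 after the annotated start, and 8 of the 10 members had an entry (all but Itgb3 and Itgb2). Each is printed 5′ to 3′ on the strand of its gene, with capitals at matches on either strand to GGAAA (the core recognised by NFAT factors), TGANTCA (the AP-1 element) or GAGGAA (the core recognised by the ETS factor PU.1). Itgav, at chr2:83724147-83724446 on the plus strand, Itgax, at chr7:128129300-128129599 on the plus strand, and Itga2, at chr13:114932051-114932350 on the minus strand, rose. Itgb5, at chr16:33829415-33829714 on the plus strand, fell.
Itgav: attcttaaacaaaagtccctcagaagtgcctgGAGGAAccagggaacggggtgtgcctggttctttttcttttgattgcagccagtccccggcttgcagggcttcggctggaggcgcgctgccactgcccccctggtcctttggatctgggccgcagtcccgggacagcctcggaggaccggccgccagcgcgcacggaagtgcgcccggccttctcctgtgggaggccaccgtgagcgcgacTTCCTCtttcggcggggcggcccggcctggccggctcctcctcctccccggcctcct
Itgax: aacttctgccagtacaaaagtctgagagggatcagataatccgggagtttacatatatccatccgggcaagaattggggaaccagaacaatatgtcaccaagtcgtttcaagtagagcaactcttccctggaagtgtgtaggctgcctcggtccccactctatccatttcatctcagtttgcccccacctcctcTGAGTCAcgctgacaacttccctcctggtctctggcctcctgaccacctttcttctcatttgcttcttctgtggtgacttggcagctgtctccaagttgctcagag
Itga2: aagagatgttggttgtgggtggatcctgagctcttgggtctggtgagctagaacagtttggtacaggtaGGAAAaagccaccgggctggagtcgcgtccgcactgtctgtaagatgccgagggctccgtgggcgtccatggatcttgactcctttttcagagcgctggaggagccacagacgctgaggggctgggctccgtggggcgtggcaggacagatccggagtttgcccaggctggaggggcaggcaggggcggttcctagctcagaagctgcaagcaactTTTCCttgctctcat
Itgb5: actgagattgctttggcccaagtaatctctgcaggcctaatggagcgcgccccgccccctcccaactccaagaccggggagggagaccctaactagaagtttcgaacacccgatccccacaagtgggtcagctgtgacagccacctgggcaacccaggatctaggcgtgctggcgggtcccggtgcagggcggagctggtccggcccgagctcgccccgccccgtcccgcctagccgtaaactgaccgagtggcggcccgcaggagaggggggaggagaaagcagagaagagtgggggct
The Itgav window held 2 matches to GAGGAA, the nearer one 7 bases before the start. The Itgax window held 1 match to TGANTCA, 56 bases before the start, and Itga2 held 2 matches to GGAAA. Itgb5 held none of the 3 motifs, nor did Itga4. Itgam and Itgb1, which also fell with RANKL and are not printed, did hold matches. Itgam had 3 matches each to GGAAA and GAGGAA, of which 1 pair overlaps, and Itgb1 had 2 and 1. Itga1, which did not pass the test for RANKL, had 1 match to GGAAA. Over all 32851 promoter windows of that length, 61.3% held GGAAA, 28.3% held GAGGAA and 7.81% held TGANTCA, so the first is a common string. A match describes letters and is not a binding site.

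The β5 gene moved the other way. Itgb5 (chr16:33829665-33949338, plus strand) had 92.7, 130 and 117 CPM in the female M-CSF libraries and 124, 82.2 and 105 CPM in the male ones. The RANKL libraries had 22.8, 20.2 and 25.2 CPM in females and 18.2, 23.1 and 20.5 CPM in males. The groups did not overlap, and the RANKL values lay close together in both sexes. The log2 fold change was -2.32 ± 0.17 in females (adjusted p 9.413e-08) and -2.33 ± 0.17 in males (adjusted p 7.332e-08), close to a 5-fold fall. It was among the stronger falls: 408 of the tested genes fell by more in females and 561 in males.

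Because β3 and β5 share αv, their balance was read as a ratio within each library, with each gene's CPM divided by its exon length in kilobases. The ratio of Itgb3 to Itgb5 in level per kilobase was 0.0152, 0.00462 and 0.00979 in the female M-CSF libraries and 0.00856, 0.0151 and 0.00840 in the male ones. With RANKL it was 13.2, 14.2 and 12.7 in females and 15.7, 8.37 and 20.0 in males. Itgb5 thus exceeded Itgb3 in every M-CSF library and Itgb3 exceeded Itgb5 in every RANKL library. The log2 ratio rose by 10.48 from M-CSF to M-CSF+RANKL over both sexes, from group means of -6.82 ± 0.87 and -6.60 ± 0.48 to 3.74 ± 0.08 and 3.78 ± 0.65 (SD, n = 3; females first). The level per kilobase of Itgav itself was 9.18 with M-CSF and 55.5 with RANKL in females, and 9.77 and 62.8 in males. In the same female groups Itgb5 went from 31.8 to 6.40 and Itgb3 from 0.296 to 85.2 CPM per kilobase.

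**Figure D3:**
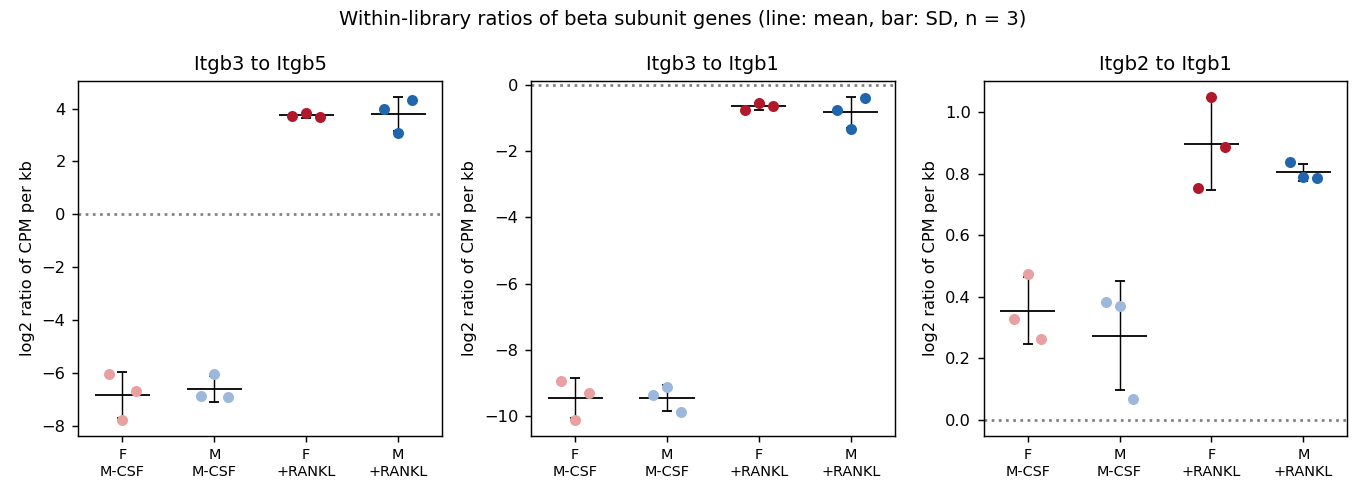
Log2 ratio of the level per kilobase (CPM per kb of exon) of Itgb3 to Itgb5, Itgb3 to Itgb1 and Itgb2 to Itgb1 in each library; the dotted line marks equal levels, and lines and bars are mean and SD (n = 3). The first ratio crosses the line between M-CSF and M-CSF+RANKL, the second stays below it in all 12 libraries, and the third stays above it; the panels have different axes.

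The β1 chain, which pairs with α1, α2, α4 and αv among the members, fell by less than 1.5-fold and stayed among the most abundant. Itgb1 (chr8:128685654-128733200, plus strand) had 800, 753 and 828 CPM in the female M-CSF libraries and 792, 795 and 954 CPM in the male ones. With RANKL it had 585, 488 and 569 CPM in females and 556, 557 and 627 CPM in males, with no overlap. The log2 fold change was -0.54 ± 0.11 in females (adjusted p 0.0008632) and -0.55 ± 0.11 in males (adjusted p 0.0006589).

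The β2 chain, the partner of αM and αX, did not pass the test, and its estimate was narrow. Itgb2 (chr10:77530252-77565708, plus strand) ranged from 719 to 808 CPM over all 12 libraries, with group means of 758 ± 21.6 and 763 ± 13.2 with M-CSF and 760 ± 25.9 and 757 ± 46.2 with RANKL (SD, n = 3; females first). Its log2 fold change was 0.00 ± 0.08 in females, with a 95% interval of -0.18 to 0.18 (adjusted p 0.9802), and -0.01 ± 0.08 in males, with an interval of -0.19 to 0.17 (adjusted p 0.9228).

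Among the 4 β members, taken per kilobase, Itgb3 rose from 0.0624% of their summed level to 17.9% in females and from 0.0617% to 17.0% in males. Itgb5 fell by share from 6.69% to 1.34% in females and from 5.98% to 1.22% in males, and Itgb1 from 40.9% to 28.2% and from 42.6% to 29.8%. Itgb2 kept between 51.4% and 52.5% in all 4 groups. These shares leave out Itgb7, a β chain that is not among the members. Itgb7 had 31.2 and 20.8 CPM per kilobase with M-CSF (females first). With RANKL it had 68.9 and 71.6, beside 85.2 and 83.2 for Itgb3. With RANKL, the level per kilobase of Itgb3 was 0.636 times that of Itgb1 in females and 0.560 times in males, as geometric means over 3 libraries, so β1 remained the more abundant in every library. The ratio of Itgb2 to Itgb1 went from 1.28 to 1.86 in females and from 1.21 to 1.75 in males.

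**Figure D4:**
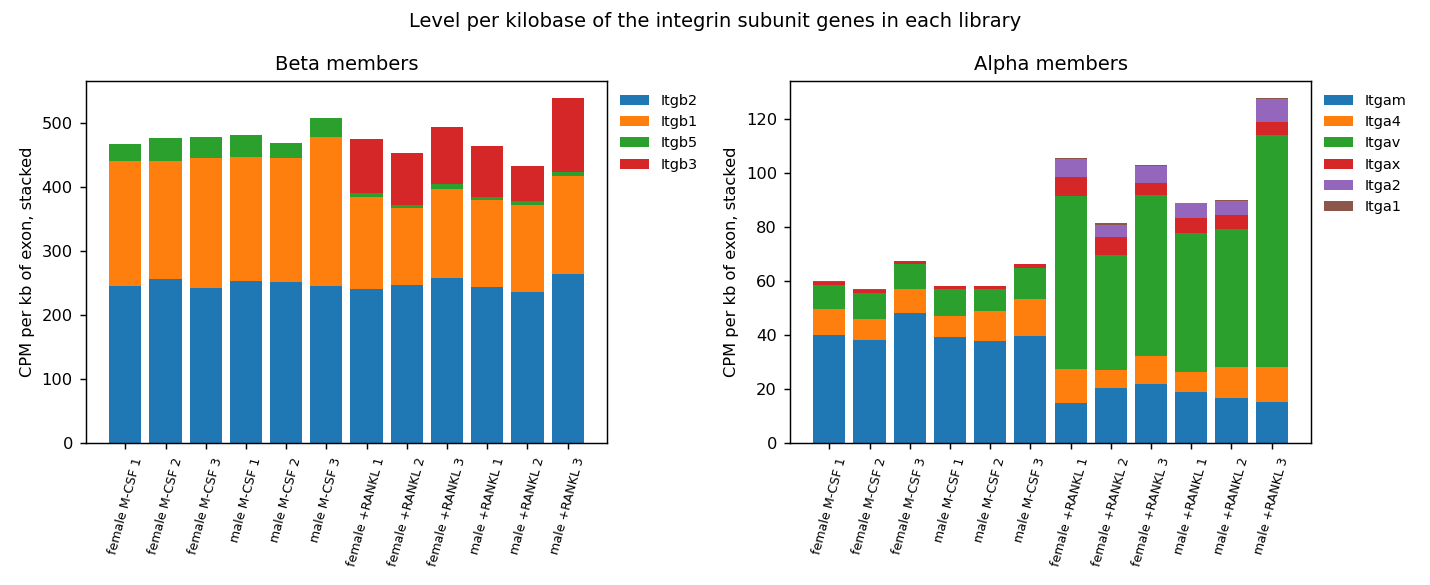
Level per kilobase (CPM per kb of exon) of the 4 β members (left) and the 6 α members (right), stacked for each of the 12 libraries. Itgb3 is visible only in the RANKL libraries, where Itgb5 shrinks; among the α members, Itgam makes up most of the M-CSF bars and Itgav most of the RANKL bars.

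The collagen-binding α chains diverged. Itga2, whose product forms α2β1 (chr13:114833081-114932100, minus strand), had 1 count in all over the 3 female M-CSF libraries and 1 over the 3 male ones. With RANKL it had 700, 483 and 656 counts in females and 567, 577 and 989 in males, or 46.2, 32.2 and 45.5 CPM and 40.3, 37.5 and 62.7 CPM. Since 1 count fixes the lower value poorly, the ratio was 1435 in females with a 95% counting interval of 257.2 to 56700, and 1848 in males with an interval of 331.4 to 73030; such intervals cover counting error only. The fitted log2 fold changes, which depend on the prior count, were 10.09 (adjusted p 3.033e-09, edgeR) and 10.40 (adjusted p 1.438e-09). Itga2 passed the filter on low counts only through its libraries with RANKL, so these p-values add no support beyond the counts. Despite the rise, the level per kilobase of Itga2 with RANKL, 5.79 in females and 6.56 in males, was below that of Itgav, at 55.5 and 62.8.

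Itga1, whose product forms α1β1 and whose gene is the next integrin gene on chromosome 13 (chr13:114953096-115101964, minus strand), did not pass the test for RANKL in either sex. Females had a log2 fold change of 0.35 ± 0.25 (95% interval -0.19 to 0.90, adjusted p 0.2669) and males one of -0.28 ± 0.29 (-0.92 to 0.35, adjusted p 0.441). Its counts were low, from 26 to 153 per library, and they differed between the sexes, as described further on.

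The leukocyte α chains, which share β2, moved in opposite directions. Itgam, which encodes CD11b, was part of the sorting gate, applied alike to the cells of all groups before culture. It lies at chr7:128062640-128118491 on the plus strand. It had 201, 191 and 242 CPM in the female M-CSF libraries and 198, 189 and 199 CPM in the male ones. The RANKL libraries had 74.6, 103 and 109 CPM in females and 94.3, 84.5 and 75.9 CPM in males, with no overlap. The fall, as a log2 fold change, was -1.15 ± 0.14 in females (adjusted p 1.325e-05) and -1.20 ± 0.14 in males (adjusted p 7.526e-06). The annotated gene Gm49368 shares 3450 of the exonic bases of Itgam on the same strand and had at most 4 counts in a library, and how reads in the shared bases were counted is not given in the sources used here.

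Itgax, which encodes CD11c (chr7:128129547-128150657, plus strand) and is the neighbour of Itgam, rose. It had 4.60, 6.50 and 5.16 CPM in the female M-CSF libraries and 5.75, 5.05 and 6.33 CPM in the male ones. The RANKL libraries had 34.0, 31.4 and 22.2 CPM in females and 25.9, 25.4 and 23.1 CPM in males, with no overlap. The rise, as a log2 fold change, was 2.42 ± 0.19 in females (adjusted p 1.397e-07) and 2.12 ± 0.18 in males (adjusted p 3.666e-07). CD11c is also a dendritic cell marker. The 6 other dendritic cell markers, Flt3, Zbtb46, Cd209a, Xcr1, Clec9a and Ccr7, summed to between 13.1 and 20.7 CPM with M-CSF alone and to between 14.2 and 18.2 CPM with RANKL, with none of the 6 at 0 throughout a group. Zbtb46 (log2 fold change 1.67 in females and 1.67 in males) and Ccr7 (3.19 and 4.09) were called up in both sexes. Cd209a (-0.72 and -0.90) was called down in both. This stands beside 24.4% of all tested genes called up in both sexes and 22.7% called down in both.

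Itga4, the α chain of α4β1 (chr2:79255426-79333123, plus strand), did not pass the test. It had 134, 111 and 126 CPM in the female M-CSF libraries and 110, 158 and 196 CPM in the male ones. The RANKL libraries had 176, 93.0 and 149 CPM in females and 108, 158 and 183 CPM in males. The groups overlapped, and the order of the replicate numbers was the same in both treatments, with replicate 1 highest in females and replicate 3 highest in males. Females had a log2 fold change of 0.17 ± 0.25 (95% interval -0.36 to 0.71, adjusted p 0.5832) and males one of -0.05 ± 0.25 (-0.58 to 0.48, adjusted p 0.8862).

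Among the 6 α members, per kilobase, Itgam made up 68.2% of the summed level with M-CSF and 20.1% with RANKL in females, and 63.9% and 17.2% in males. Itgav went from 15.0% to 57.0% in females and from 15.9% to 60.6% in males. Itga2 made up less than 0.01% with M-CSF and 5.95% and 6.35% with RANKL. These shares leave out α chains that are not among the members. With M-CSF, Itga6 had 39.0 and 41.4 and Itga5 36.5 and 34.0 CPM per kilobase, beside 42.1 and 38.9 for Itgam (females first). With RANKL, Itga6 had 8.43 and 8.79 and Itga5 57.5 and 55.2, beside 55.5 and 62.8 for Itgav.

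Ordered by level per kilobase, Itgb2 and then Itgb1 led in all 4 groups, with ranges that did not overlap each other. With M-CSF alone they were followed by Itgam, Itgb5, and the pair of Itgav and Itga4, which overlapped, and then by Itgax. Itgb3, Itga1 and Itga2 came last, and in females Itgb3 and Itga1 overlapped. With RANKL, Itgb3 came next after Itgb1 and Itgav after Itgb3, without overlap in females, at 85.2 ± 4.57 and 55.5 ± 11.3 CPM per kilobase (SD, n = 3), and with overlap in males, at 83.2 ± 30.5 and 62.8 ± 20.0. The order of Itgb3 and Itgav depended on the length used. With the longest transcript in place of all exons, they were close in females, at 86.9 and 84.5 CPM per kilobase. In males the order turned over, with Itgav at 95.7 against 84.9 for Itgb3. Itgam followed. After it came Itga4, Itgb5, Itgax and Itga2 in females and Itga4, Itga2, Itgb5 and Itgax in males, with overlap between each gene and the next. Itga1 came last. Set among the 13233 tested genes with a length, Itgb3 exceeded 11.3% of genes in female M-CSF cultures and 95.8% in female RANKL cultures, while Itgb5 went from 87.5% to 55.3%.

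The study set female against male cells in each treatment. With M-CSF alone no member passed edgeR's test, which called 0.0453% of all tested genes. With M-CSF+RANKL 1 member did, Itga1, where the test called 0.0529% of genes, 7 in all; Itga1 was 1 of 2 genes, 0.0151% of those tested, that were higher in females. Itga1 had 107, 153 and 75 counts in the female RANKL libraries and 31, 26 and 33 in the male ones. With M-CSF alone it had 67, 87 and 51 counts in females and 33, 29 and 32 in males. In either treatment every female library lay above every male one, which held for 7.61% of tested genes with RANKL and 8.42% without when both directions are counted. In CPM the means with RANKL were 7.48 ± 2.52 for females and 1.99 ± 0.269 for males (SD, n = 3), which is 3.75-fold, or a log2 fold change of 1.91 ± 0.27 (adjusted p 0.01664, edgeR). With M-CSF alone the log2 fold change was 1.27 ± 0.28 (adjusted p 0.4576). The call rested on single libraries: without female RANKL replicate 1 the adjusted p was 0.0583, and without male RANKL replicates 1, 2 and 3 it was 0.0831, 0.217 and 0.118. The other 9 members had log2 fold changes between -0.33 and 0.13 with M-CSF alone and between -0.18 and 0.24 with M-CSF+RANKL. The authors' deposited table also listed 1 member as called in the RANKL cultures. The same-strand gene Gm49395 shares 685 exonic bases with Itga1 and had between 0 and 17 counts per library.

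The 11 neutrophil and granule markers, Mpo, Elane, Prtn3, Ctsg, Ltf, Camp, Ngp, S100a8, S100a9, Ly6g and Lcn2, had a higher sum in every female library than in every male one. They summed to between 99.2 and 313 CPM in the female M-CSF libraries and between 56.9 and 83.7 CPM in the male ones, and to between 103 and 322 CPM and between 59.2 and 91.0 CPM with RANKL. None of the 11 was at 0 throughout a group. None of the 10 that were tested (all but Ly6g) was called between the sexes in either treatment, and the lowest adjusted p was 0.0700, for Prtn3 with M-CSF alone (edgeR). Mpo, Elane, Prtn3 and Ctsg did not overlap between the sexes, and Ltf, Camp, Ngp, S100a8, S100a9 and Lcn2 did. Ctsg (r = 0.834) and Prtn3 (r = 0.772) were among the 5 genes most like Itga1 over the 12 libraries, as given further on. Within the female libraries the order of the summed markers differed from that of Itga1: replicate 2 had the highest Itga1 and the lowest sum in both treatments, and replicate 3 had the reverse. The part of these cells in the Itga1 difference was not tested.

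**Figure D5:**
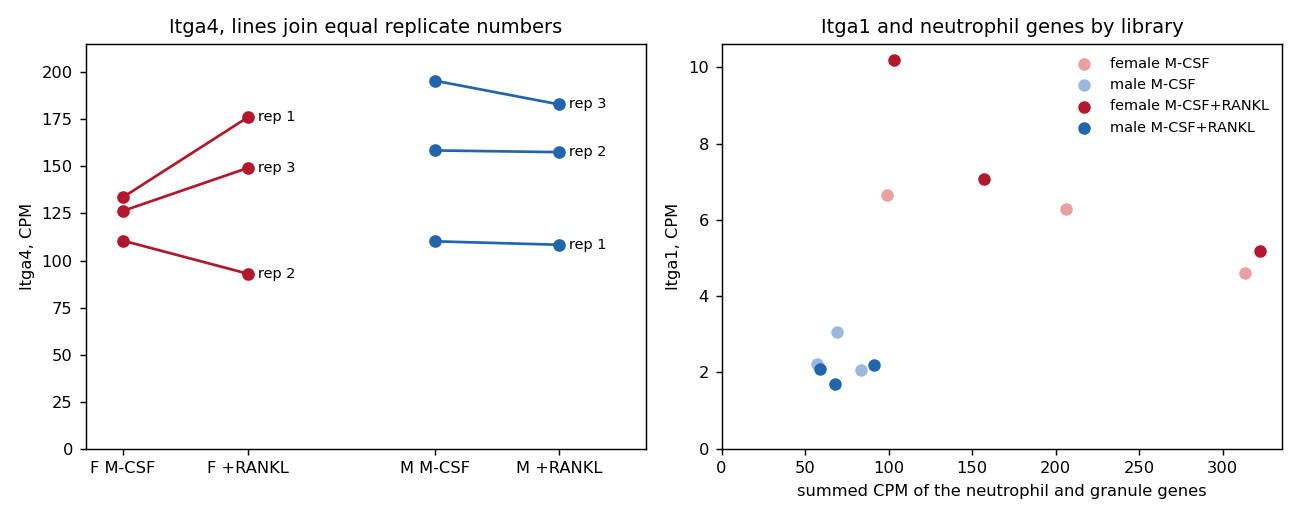
Left, CPM of Itga4, with lines joining libraries of the same sex and replicate number across treatments. Right, CPM of Itga1 against the summed CPM of the neutrophil and granule genes in each library. In the left panel the order of the replicate numbers is the same at both ends of the lines. In the right panel all 6 female libraries lie above all 6 male ones on both axes. Among the female libraries of each treatment, taken separately, the highest Itga1 goes with the lowest sum.

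The response to RANKL was also compared between the sexes directly. No member passed the test for a difference, and none of the 13236 genes was called (0% of those tested, by edgeR and by DESeq2 alike), with 260 genes at an unadjusted p under 0.05 (edgeR). For Itgb3 the response differed between females and males by 0.08 ± 0.47 on the log2 scale, with a 95% interval of -0.94 to 1.09. For Itgb5 the difference was 0.01 ± 0.23, with an interval of -0.48 to 0.51, and for Itgav it was -0.09 ± 0.29, with an interval of -0.71 to 0.53. For Itga1 it was 0.64 ± 0.39 (-0.20 to 1.48, adjusted p 0.9999, edgeR). The interval was widest for Itga2, at -4.77 to 4.15. The sex comparisons and the RANKL comparisons share libraries and are not independent of each other.

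Of 16 further integrin subunit genes listed, 14 were in the table and 8 passed the filter on low counts. Among those 8, Itgae, Itgb7 and Itga5 rose and Itga8 and Itga6 fell in both sexes. Itga9, Itga10 and Itgal did not pass the test in either. Of all tested genes, 24.4% were called up in both sexes and 22.7% down in both. Over the 8 the median was 0.14 (females) and -0.22 (males) on the log2 fold scale. Itga6, the α chain of laminin-binding α6β1, went from 352 ± 35.3 to 76.1 ± 12.7 CPM in females and from 373 ± 60.7 to 79.3 ± 24.9 CPM in males. Itga8, the α chain of α8β1, an RGD-binding receptor, went from 57.3 ± 13.1 to 4.05 ± 2.13 CPM in females and from 59.2 ± 26.6 to 2.97 ± 1.16 CPM in males. Itga5, the α chain of the fibronectin receptor α5β1, went from 180 ± 47.4 to 284 ± 8.25 CPM and from 168 ± 15.1 to 272 ± 17.0 CPM. Itgb7, the leukocyte β chain that pairs with α4 and αE, went from 86.5 ± 22.2 to 191 ± 20.3 CPM and from 57.6 ± 7.21 to 198 ± 28.9 CPM. Of the further β chains that pair with αv, Itgb8 had at most 18 counts in a group.

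Genes that sit below αvβ3 changed in both directions. Of 16 signalling genes tested, females had 8 up and 6 down and males had 9 up and 7 down. Over all tested genes, 51.9% were called in females and 55% in males. The median log2 fold change of the 16 was 0.38 in females and 0.52 in males. Src, the kinase bound to the β3 tail, went from 0.884 ± 0.0962 to 384 ± 45.1 CPM in females and from 0.516 ± 0.219 to 440 ± 26.7 CPM in males. Cttn, which encodes the actin-binding Src substrate cortactin, went from 2.20 ± 0.784 to 182 ± 19.8 CPM and from 1.85 ± 0.624 to 179 ± 11.3 CPM. Bcar1, which encodes the adaptor p130Cas, went from 0.251 ± 0.148 to 17.9 ± 2.94 CPM and from 0.241 ± 0.118 to 20.5 ± 1.15 CPM. Ptk2, which encodes focal adhesion kinase, fell, from 39.4 ± 2.68 to 11.0 ± 2.58 CPM and from 43.5 ± 2.24 to 9.82 ± 1.84 CPM.

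Genes for integrin activators and for adaptors that link integrins to actin moved in both directions. Of 18 activators and adaptors listed, 15 were tested. Females had 5 up and 4 down and males 6 up and 4 down, beside 51.9% and 55% of all tested genes called. The medians were 0.06 (females) and 0.04 (males) on the log2 fold scale. Lims2, which encodes a LIM-domain protein of the ILK, PINCH and parvin complex, went from 0.302 ± 0.223 to 17.3 ± 3.81 CPM in females and from 0.102 ± 0.107 to 18.1 ± 3.46 CPM in males. Vcl, which encodes vinculin, went from 39.7 ± 4.16 to 133 ± 53.5 CPM and from 46.9 ± 8.79 to 141 ± 42.6 CPM. Parvg, which encodes γ-parvin, went from 132 ± 29.2 to 70.8 ± 18.7 CPM and from 126 ± 50.1 to 61.3 ± 22.2 CPM, and Zyx, which encodes zyxin, from 159 ± 13.3 to 90.1 ± 6.21 CPM and from 144 ± 10.3 to 79.2 ± 11.7 CPM. All 4 of these passed the test in both sexes. Tln1 and Fermt3, the talin and kindlin of blood cells, did not pass it. Tln1 had log2 fold changes of 0.12 ± 0.17 (females) and 0.04 ± 0.17 (males), and Fermt3 of 0.06 ± 0.08 and 0.17 ± 0.08. Their relatives Tln2 and Fermt2 were called up in both sexes, each with a mean below 5 CPM in the higher treatment. Tln2 had log2 fold changes of 1.61 ± 0.28 and 1.76 ± 0.28, and Fermt2 of 6.89 ± 0.95 and 4.34 ± 0.64.

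Of 6 inactivators tested, 1 rose and 3 fell in each sex, beside 51.9% of all tested genes called in females and 55% in males. The medians were -0.35 (females) and -0.34 (males) on the log2 fold scale. Dok2, which encodes an adaptor with a phosphotyrosine-binding domain, went from 308 ± 35.5 to 88.0 ± 10.9 CPM in females and from 289 ± 25.6 to 72.2 ± 6.53 CPM in males, and its relative Dok1 from 51.4 ± 10.8 to 89.8 ± 15.2 CPM and from 51.3 ± 9.83 to 101 ± 7.28 CPM. Flna, which encodes filamin A, and Itgb1bp1, which encodes the β1-binding ICAP1, were the others that fell.

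Of 20 ligand genes listed, 12 were tested. Females had 6 up and 3 down and males 6 up and 2 down, beside 51.9% and 55% of all tested genes called. The medians were 0.66 (females) and 0.43 (males) on the log2 fold scale. Spp1, which encodes osteopontin, a ligand of αvβ3, went from 6962 ± 1027 to 1089 ± 202 CPM in females and from 7385 ± 1780 to 1053 ± 134 CPM in males, a fall with a log2 fold change of -2.68 ± 0.20 and -2.81 ± 0.20 (adjusted p 8.935e-08 and 4.784e-08). Mfge8, which encodes lactadherin, an RGD-bearing ligand of αvβ3 and αvβ5, went from 23.2 ± 2.89 to 91.0 ± 17.9 CPM and from 23.6 ± 2.53 to 99.1 ± 12.6 CPM. C3, the complement component whose fragment iC3b binds αMβ2 and αXβ2, rose from 30.6 ± 10.6 to 89.2 ± 43.1 CPM and from 17.3 ± 5.08 to 46.1 ± 8.67 CPM. Icam2, which encodes a ligand of the β2 integrin LFA-1, fell from 19.6 ± 2.28 to 5.80 ± 1.43 CPM and from 15.0 ± 2.05 to 3.88 ± 0.465 CPM.

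The genes most like a member were ranked by Pearson's correlation of log2 CPM over the 12 libraries, among 9819 genes with a mean of at least 5 CPM. The libraries fall into 2 clusters by treatment, and these values are descriptions. For Itgb3 the first 5 were F2r, the thrombin receptor gene, with r = 0.998, Mapk4, Snx10, Ext1 and Sphk1, with the fifth at 0.997. F2r went from 0.0313 ± 0.0542 to 91.6 ± 1.72 CPM in females. For Itgb5 they were Man2b1 and Ctsl, which encode lysosomal enzymes, Rps6ka4, Slc7a8 and Dok2, with r from 0.994 to 0.993. For Itga1 they were Xist, with r = 0.926, Pbdc1, Ctsg, Eif2s3x and Prtn3, with the fifth at 0.772. All 5 had higher means in females than in males in both treatments, so this last list follows sex and not treatment. Xist had 535 and 532 CPM in females and 0.116 and 0.0665 CPM in males (M-CSF alone first).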

How the data were processed

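Gene counts deposited by the authors for 12 libraries, 4 groups of 3, were used. Per the labels' protocols the libraries were stranded and poly(A)-selected. Per the submitters' processing notes fastp, STAR 2.7.3a and edgeR were used with the mm10 build; for the counting program and its strand setting, nothing was given in the sources used here. The authors' deposited table of comparisons holds log2 fold changes, log2 CPM, p-values and other columns; it was used only where named.

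Groups came from the sample titles. Counts were tested with edgeR 4.0.16 in R 4.3.3: filterByExpr with a minimum count of 10, TMM scaling, 1 mean per group fitted over all 12 libraries, so that the groups share 1 estimate of spread, the quasi-likelihood test and Benjamini-Hochberg adjustment over 13236 genes. CPM used TMM-scaled library sizes. Levels per kilobase used the union of exons in GENCODE vM21 (GRCm38), in which 23855 of 23863 genes were found by gene identifier. The fits were tested on simulated data. Alternatives were RLE scaling, DESeq2 1.42.0, no filter on low counts, a replicate block, the longest transcript as length, and leaving out each library. No replicate pair agreed within counting error: chi-square divided by its degrees of freedom was 11.5 to 34.7.

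Libraries of the same sex and replicate number, taken from the titles, deviated together from their group means: correlations over 8920 genes were 0.302 to 0.706, and -0.618 to -0.00958 for unlike numbers. Deviations were taken from means of 3 libraries, so the values for like and unlike numbers are tied to each other. As every like-number value was positive, the numbers were read as pairing M-CSF with RANKL libraries within a sex. Between the sexes, like numbers gave -0.498 to 0.521 and unlike numbers -0.613 to 0.729, and no pairing was read from them.

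The members and lists were chosen with earlier results of these data known. All members were named. From each other list, up to 4 genes were named, plus other tested subunits. The up to 4 were those called in both sexes with the largest mean change and at least 5 CPM in the higher treatment. Itga2b, Itgb8, Tln1, Fermt3, Tln2 and Fermt2 were named after their values were seen.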

Additional observations from a re-analysis of the deposited data

How the results depend on the processing

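The count of 7 members called with RANKL in each sex was the same under RLE scaling, DESeq2, no filter on low counts, the replicate block and each of the 12 left-out libraries, and each of the 7 kept its direction and its call there. With a replicate block for each sex and replicate number, 8014 genes were called in females and 8356 in males. There the SE of the Itga4 response fell from 0.25 to 0.11 in both sexes. The comparisons between the sexes used another block, with a term per replicate number shared by females and males. It called 8 genes with M-CSF and 9 with M-CSF+RANKL. As the numbers were not read as pairing the sexes, those 2 counts say little. Neither block changed a member's call. Between the sexes, DESeq2 called 16 genes with M-CSF, 1 of them a member (Itga1, adjusted p 0.0496), and 20 with M-CSF+RANKL, and without the filter 12 and 11 were called; the cause was not tested. Leaving out a library gave 6 to 12 calls with M-CSF+RANKL, the highest without female RANKL replicate 2, and 0 to 1 called members, with 0 in the 4 cases named for Itga1, where adjusted p over all alternatives ran from 1.927e-06 to 0.217. The rise in the log2 ratio of Itgb3 to Itgb5 ranged from 10.27 to 10.62.

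Changes of sign occurred only in comparisons in which the member did not pass the test. For Itgb2 they came without the filter, in the RANKL response in females (-0.0078), and between the sexes with M-CSF+RANKL under RLE scaling and DESeq2 (-0.0011 each) and without the filter (-8e-04). The others came with a library left out, where the lowest and highest log2 values were as follows. In the RANKL response, Itgb2 ranged from -0.0218 to 0.0326 and Itga4 from -0.0233 to 0.387 in females, and from -0.0596 to 0.0287 and from -0.242 to 0.1527 in males. Between the sexes with M-CSF, the ranges were -0.3091 to 0.2641 for Itgb3, -0.2207 to 0.0422 for Itgav, -0.0292 to 0.2777 for Itgb5, -0.1538 to 0.0011 for Itgb1, -0.0348 to 0.0139 for Itgb2, -1.9407 to 2.0432 for Itga2 and -0.2313 to 0.0342 for Itgax. With M-CSF+RANKL, they were -0.2013 to 0.3413 for Itgb3, -0.3125 to 0.113 for Itgav, -0.0346 to 0.0568 for Itgb2, -0.3243 to 0.0861 for Itga2 and -0.308 to 0.1114 for Itga4. For the difference of the responses, they were -0.2325 to 0.3893 for Itgb3, -0.2253 to 0.21 for Itgav, -0.1397 to 0.1701 for Itgb5, -0.0843 to 0.0777 for Itgb1, -0.0305 to 0.0702 for Itgb2, -2.228 to 1.7546 for Itga2 and -0.0416 to 0.2104 for Itgam.

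With the longest transcript as length, Itga1 and Itgav moved most in level per kilobase, Itgav to 14.0 with M-CSF and 84.5 with RANKL in females and to 14.9 and 95.7 in males. With RANKL this put Itgav above Itgb3 in males, at 84.9, and close to it in females, at 86.9. Depth limits Itga2 with M-CSF alone and Itga1 throughout.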
